A study of Mus musculus with 7 samples.

Results

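The polyamine genes described here were the 10 members Odc1, Amd1, Amd2, Srm, Sms, Smox, Paox, Sat1, Oaz1 and Oaz2. They were chosen as the enzymes that make, interconvert and degrade polyamines, together with the antizymes that restrain the first of them. A probe counted as a member where its gene name on the array, or the current symbol of its RefSeq transcript, was one of the 10. This gave 21 of the 39429 non-control probes, and 9 of the 10 symbols named at least 1 probe. No probe carried the name Amd1, but 2 of the probes named Amd2 also listed the Amd1 transcript. All 21 member probes passed the filter on dim probes, and for 20 of these every one of the 7 arrays gave a signal well above background.

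RNA of the quadriceps, a thigh muscle, was hybridised to single-dye Agilent mouse arrays, 1 array for each of 7 mice. There were 4 WT mice and 3 AR113Q mice, all C57BL/6 and 3 months old, and the study describes its animals as male. AR113Q mice are knock-in mice with an expanded polyglutamine tract, a model of spinal and bulbar muscular atrophy, and the comparison asked which muscle transcripts differed before motor signs began. The labels call the control mice WT, whereas the study's results text describes control mice that carry a humanized allele with an unexpanded tract, so the controls may carry that allele. Since whole muscle was measured, fewer cells of a type and less RNA per cell cannot be told apart.

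Polyamines are small positively charged molecules that bind nucleic acids and are needed for translation and cell growth. Ornithine decarboxylase makes putrescine from ornithine, and the synthases then extend it to spermidine and spermine with aminopropyl groups that come from S-adenosylmethionine once Amd1 has decarboxylated it. Oxidases and an acetyltransferase run the path backwards, and antizymes, whose own translation rises with the polyamine level, send ornithine decarboxylase to the proteasome. In muscle, ornithine decarboxylase and S-adenosylmethionine decarboxylase are known as androgen-responsive genes, and spermine oxidase is known to fall in atrophying muscle.

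The pathway did not move as a whole. The signals of the probes for Smox, for Amd2 (or Amd1, which 2 of its 3 probes also list) and for Odc1 were lower in AR113Q muscle, that of Sat1 was higher, and those of Srm, Paox, Oaz1 and Oaz2 did not pass the test. A probe was called where limma gave an adjusted p (Benjamini-Hochberg over all probes tested) of at most 0.05 and the log2 fold change of AR113Q against WT was at least 1 in size. By this rule 10 of the 21 member probes were called, or 47.6%, against 24.8% of all 20991 probes tested. One of the 10, an Odc1 probe, passed the filter on dim probes through WT alone. Over probes well above background on all 7 arrays, 9 of 20 member probes were called, against 21.9% of 17108. With slide as a fixed effect, a fit with 1 residual degree of freedom, none of the 10 kept its call (limma adjusted p = 0.0508 for Smox and Amd2, 0.0703 to 0.158 for Odc1 and 0.0797 for Sat1), and 0 of all 20991 probes were called, though 7928 had an unadjusted p under 0.05. Of the 10, 9 were lower in AR113Q, where the share over all probes was 12.6%, and 1 was higher, where it was 12.2%. On adjusted p alone, 13 of 21 passed, against 43.8% of all probes. The WT and AR113Q values did not overlap for 13 of 21, against 49.6% of all probes. Several probes of a gene share its transcript, so 4 gene names and not 10 stood behind the called probes. The name Amd2 may stand for Amd1, Amd2 or both. With 1 probe per gene, 4 of 9 were called, against 24.3% of the 16577 genes in the same fit. The members' median log2 fold change stood at -0.80 over 21 probes, beside 0.01 over all probes, but at -0.0912 with 1 probe per gene and at -0.0778 with the mean over the probes of a gene.

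**Figure D1:**
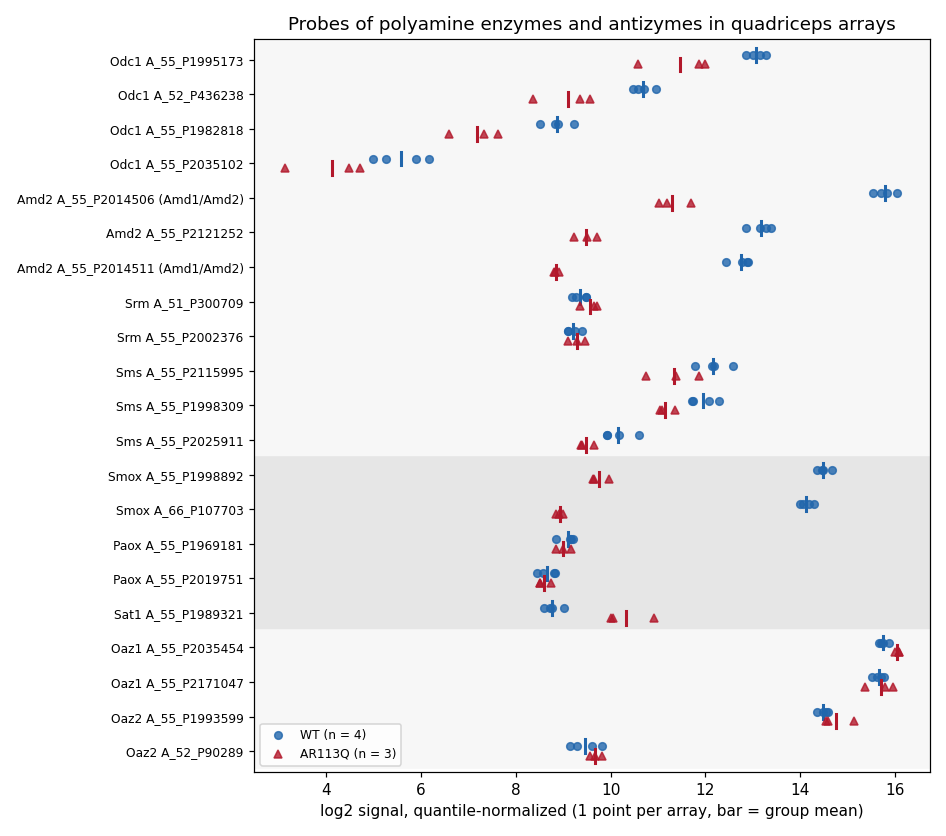
Quantile-normalized log2 signal (x axis) of the 21 member probes (rows, shaded by role as synthesis, catabolism and antizymes) in 4 WT mice (circles) and 3 AR113Q mice (triangles), with a bar at each group mean. The groups lie far apart for both Smox probes and the 3 Amd2 probes, closer for Odc1 and Sat1, and overlap for Srm, Paox and Oaz2.

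A few facts of the whole series bear on these values. On each array 47.6% to 55.8% of probes were well above background, and no spot was saturated. Arrays of 1 genotype correlated at 0.969 to 0.987 over the probes tested, and arrays of different genotypes at 0.908 to 0.943. The arrays lay on 5 slides read on 1 scan date, and only slide 2 held both genotypes (WT mouse 2 and AR113Q mouse 1), so genotype and slide overlap in large part. All 10 myofiber markers were detected and 0 of them were called. Of the markers of other cells, 5 of 6 adipocyte genes and 3 of 5 tested fibroblast genes were called lower, where 13.1% of all genes tested were lower and 11.2% higher. In the macrophage list 1 gene of 6 was called higher and 2 lower, in the Schwann cell list 2 of 6 lower and in the satellite cell list 1 of 3 tested higher. No endothelial gene of 6 and no erythrocyte gene of 4 tested was called. The summed log2 level of the adipocyte list was 15.06 to 16.05 in WT and 13.53 to 14.34 in AR113Q, that of the macrophage list 12.74 to 13.44 and 12.16 to 12.61, and that of the Schwann cell list 11 to 12.18 and 10.39 to 10.85. The fibroblast list overlapped, at 16.20 to 16.46 in WT and 16.13 to 16.56 in AR113Q, but its sum was set mostly by Dcn (15.93 in WT and 16.34 in AR113Q on average), while Col1a1, Col3a1 and Lum differed by -3.27, -4.62 and -2.39. The part of these cells in the polyamine results was not tested.

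Odc1, the enzyme that makes putrescine and sets the pace of the pathway, was the first step of synthesis (chr12:17544808-17551502, GRCm38.p6). It was read by 4 probes, of which 3 were well above background on all 7 arrays, and these 3 were lower in AR113Q. The log2 signal of A_55_P1995173 was 13.00, 13.28, 12.86 and 13.15 in WT mice 1 to 4 and 11.86, 11.99 and 10.57 in AR113Q mice 1 to 3. The groups did not overlap on this scale, and AR113Q mouse 3 lay far below the other AR113Q mice. In unscaled signal the groups overlapped, at 5335.9 to 9737.2 units in WT and 1836.6 to 5602 units in AR113Q. The difference was -1.60 (SE 0.33, 95% confidence interval -2.37 to -0.83, limma adjusted p = 0.00598), a 3.03-fold lower level. Without AR113Q mouse 3 the difference was -1.15 (limma adjusted p = 0.00237). For A_52_P436238 the values ran from 10.48 to 10.96 in the 4 WT mice and were 9.56, 9.36 and 8.37 in AR113Q, a difference of -1.58 (SE 0.29, adjusted p = 0.00332). For A_55_P1982818 they were 8.89, 8.50, 8.83 and 9.23 in WT and 7.63, 7.33 and 6.59 in AR113Q, a difference of -1.68 (SE 0.28, adjusted p = 0.0021). AR113Q mouse 3 was the lowest of the 7 on each of these probes. On slide 2 alone the differences were -1.42, -1.01 and -0.87 in the same order.

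The remaining Odc1 probe, A_55_P2035102, was dim. It was well above background on all 4 WT arrays and on 1 AR113Q array, so it passed the filter through WT alone and does not add to the other 3. Its values were 6.16, 5.89, 4.99 and 5.26 in WT and 4.49, 4.72 and 3.13 in AR113Q. Its difference of -1.46 (SE 0.43, adjusted p = 0.0249) lost its call in 8 of 20 other settings. The difference was -0.36 both with normexp and without background subtraction, and -0.20 in the authors' table. It covers nearly the same stretch as A_55_P1995173, with 54 of 55 overlapping bases matching. The 30 bases below are where the pair differ, with the differing base in capitals.
Odc1 A_55_P1995173, bases 6 to 35: ccagaagcTtatgttgtgacccattgtgaa
Odc1 A_55_P2035102, bases 1 to 30: ccagaagcGtatgttgtgacccattgtgaa
A_55_P1982818 shares 22 bases with A_55_P1995173, so these 3 probes are not independent readings, and A_52_P436238 shares at most 7 bases in a row with any of them. A further probe with no gene name, A_55_P2130448, shares 34 bases with A_55_P1995173 and differed by -1.81 (limma adjusted p = 0.00398).

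S-adenosylmethionine decarboxylase, which supplies the aminopropyl donor, is encoded by Amd1 (chr10:40287458-40302188, GRCm38.p6, a span of 14731 bases) and by Amd2 (chr10:35708691-35711891, a span of 3201 bases). The array annotation assigned A_55_P2014506 and A_55_P2014511 to both transcripts and A_55_P2121252 to Amd2 alone, so the 2 genes cannot be told apart by the first pair. All 3 probes were much lower in AR113Q. A_55_P2014506 read 16.05, 15.71, 15.84 and 15.54 in WT and 11.69, 11.19 and 11.03 in AR113Q. The lowest WT mouse stood 3.85 above the highest AR113Q mouse. The difference was -4.48 (SE 0.21, 95% confidence interval -4.96 to -4, adjusted p = 2.25e-05), a 22.3-fold lower level. In unscaled signal this probe read 46108.2 to 57989.8 units in WT and 2585.5 to 4240.5 units in AR113Q.

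The other Amd2 probes moved likewise. A_55_P2014511 read 12.90, 12.87, 12.77 and 12.44 in WT and 8.83, 8.80 and 8.92 in AR113Q, a difference of -3.89 (SE 0.17, adjusted p = 1.59e-05), or 14.9-fold. A_55_P2121252 read 13.39, 13.16, 13.27 and 12.85 in WT and 9.72, 9.50 and 9.23 in AR113Q, a difference of -3.68 (SE 0.19, adjusted p = 4.25e-05), or 12.9-fold. Slide 2 alone gave -4.02, -4.04 and -3.44 for the 3 probes in this order. No pair of them shares more than 8 bases in a row, so they read separate stretches, of which the first 30 of 60 bases are shown to identify each target.
A_55_P2014506: gttggtgttggacttttaatcagctgaaat
A_55_P2014511: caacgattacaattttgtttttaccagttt
A_55_P2121252: ctgacatctgtgactgttctattaaattga
The Amd1 and Amd2 start regions in RefSeq share a run of 48 bases that begins just after the transcription start, while the 250 bases before the starts share at most 7 bases in a row.

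Srm and Sms are the synthases that add the aminopropyl groups, to putrescine and to spermidine respectively. Srm (chr4:148591513-148594619, GRCm38.p6) did not pass the test. A_51_P300709 read 9.19, 9.49, 9.27 and 9.48 in WT and 9.64, 9.35 and 9.71 in AR113Q, a difference of 0.20 (95% confidence interval -0.18 to 0.58, adjusted p = 0.346). A_55_P2002376 differed by 0.07 (-0.29 to 0.44, adjusted p = 0.737), and the groups overlapped on both. Both intervals lie inside the fold threshold of 1 on the log2 scale, but a missed threshold does not show equal levels.

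Sms, the spermine synthase (chrX:157443851-157492287, GRCm38.p6), passed on adjusted p at all 3 probes but stayed under the fold threshold. A_55_P1998309 read 12.08, 11.72, 11.74 and 12.29 in WT and 11.08, 11.35 and 11.04 in AR113Q, a difference of -0.80 (SE 0.19, adjusted p = 0.0114). A_55_P2025911 differed by -0.69 (SE 0.20, adjusted p = 0.0258), and its groups did not overlap either. A_55_P2115995 differed by -0.84 (SE 0.29, adjusted p = 0.0456), with AR113Q mouse 2 at 11.86 inside the WT range of 11.77 to 12.59. Before scaling between arrays the medians of this probe were 3718 units in WT and 3419 units in AR113Q, and the difference was seen on the scaled values. With array weights the adjusted p of the 3 probes was 0.0225, 0.0514 and 0.12, and with the replicate block none was below 0.0571.

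Smox, the spermine oxidase that turns spermine back into spermidine, showed the widest separation of the members (chr2:131491858-131525183, GRCm38.p6). It was read by 2 probes that share at most 6 bases in a row, placed by the array annotation on chromosome 2 at chr2:131350842-131350901 and chr2:131347853-131347912 of mm9. The first 30 of 60 bases are shown for each.
A_55_P1998892: catgttattgcaagtgccttcaatactttg
A_66_P107703: atacttccggggttcctattcctacacaca
A_66_P107703 read 14.06, 13.99, 14.18 and 14.29 in WT and 9, 8.92 and 8.85 in AR113Q. The groups were 4.99 apart at their nearest mice. The difference was -5.21 (SE 0.15, 95% confidence interval -5.55 to -4.87, limma adjusted p = 2.81e-06), a 36.9-fold lower level. A_55_P1998892 read 14.35, 14.66, 14.45 and 14.48 in WT and 9.64, 9.97 and 9.63 in AR113Q, a difference of -4.74 (SE 0.16, adjusted p = 6.68e-06), or 26.7-fold.

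The Smox signal was still well above background in every AR113Q mouse. In unscaled units A_55_P1998892 read 13424.6 to 25502.7 in WT and 956.6 to 1379.4 in AR113Q. Slide 2 alone gave -5.02 for this probe and -4.99 for the other. Ranked by p among all 20991 probes tested, the Smox probes were in places 2 and 4 and the Amd2 probes in places 8, 15 and 20, and by size of decrease A_66_P107703 was in place 7.

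**Figure D2:**
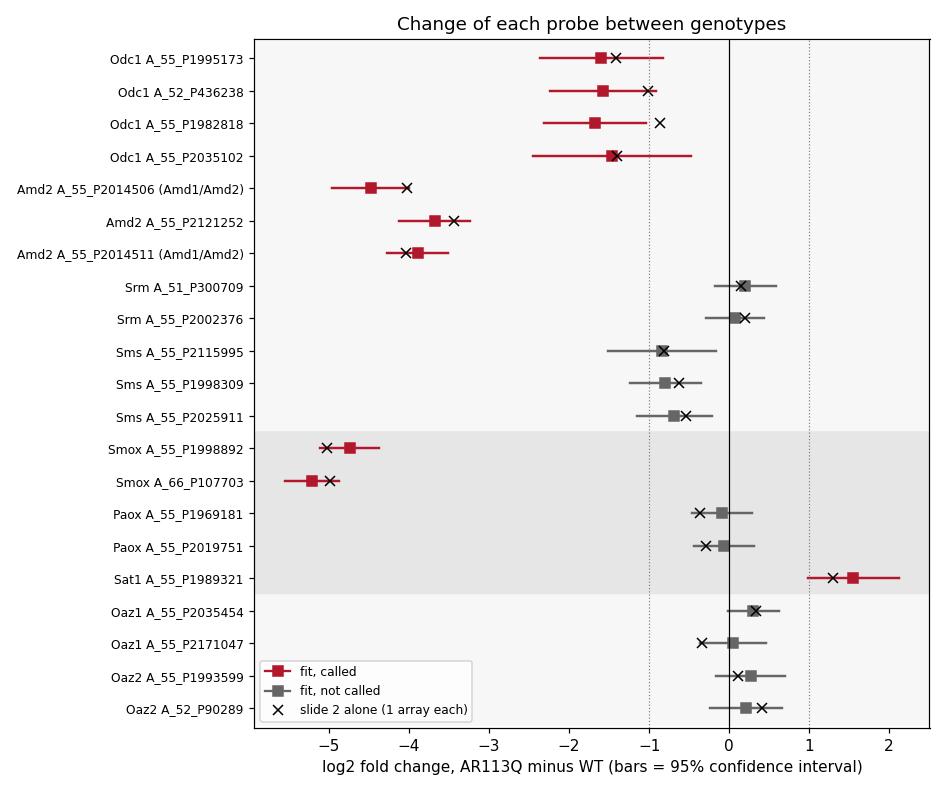
Log2 fold change of AR113Q against WT (x axis) for each member probe (rows), with its 95% confidence interval, and the difference between the 2 arrays of slide 2 (crosses). The called probes (red) are those of Odc1, Amd2, Smox and Sat1, and dotted lines mark the fold threshold of 1 on the log2 scale.

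Paox, the peroxisomal oxidase that acts on acetylated polyamines (chr7:140115735-140134334, GRCm38.p6), did not pass the test. A_55_P1969181 read 9.14, 9.21, 8.85 and 9.17 in WT and 8.84, 9.17 and 8.99 in AR113Q, a difference of -0.09 (95% confidence interval -0.47 to 0.28, adjusted p = 0.679). A_55_P2019751 differed by -0.06 (-0.44 to 0.31, adjusted p = 0.775). The pair share 54 bases and count as 1 reading. On slide 2 alone the differences were -0.37 and -0.29.

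Sat1, the acetyltransferase that marks spermidine and spermine for export or oxidation (chrX:155213126-155216449, GRCm38.p6), was the only member whose called probe was higher in AR113Q. Its 1 probe, A_55_P1989321, read 8.59, 8.77, 9.02 and 8.71 in WT and 10.06, 10 and 10.91 in AR113Q. The groups were 0.98 apart, and AR113Q mouse 3, the lowest for Odc1, was the highest here. The difference was 1.55 (SE 0.25, 95% confidence interval 0.99 to 2.12, limma adjusted p = 0.00179), a 2.94-fold higher level, and it was 1.30 on slide 2 alone. Smox and Sat1, both on the degrading side, thus differed in opposite directions.

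Oaz1 and Oaz2, the antizymes that bind ornithine decarboxylase, did not pass the test. Oaz1 (chr10:80826656-80829290, GRCm38.p6) was read by 2 probes that are identical over their first 54 bases and then part, so the last 30 bases are shown with the differing bases in capitals.
Oaz1 A_55_P2035454: caaatccaataaagtgatctcgttCaTTGG
Oaz1 A_55_P2171047: caaatccaataaagtgatctcgttAaAAAA
A_55_P2035454 read 15.67, 15.75, 15.70 and 15.87 in WT and 16.08, 16.08 and 15.99 in AR113Q, a difference of 0.30 (95% confidence interval -0.01 to 0.62, adjusted p = 0.108) between groups that did not overlap. A_55_P2171047 read 15.36 in AR113Q mouse 1, the lowest of the 7 arrays, and differed by 0.05 (-0.37 to 0.46, adjusted p = 0.855). Its sign turned with 75th percentile scaling, to -0.149, and A_55_P2035454 then stood at 0.0432. The limma adjusted p of A_55_P2035454 was 0.0343 in the authors' table and 0.0468 with an intensity trend in the variance. In both it stayed under the fold threshold. Oaz2 (chr9:65676548-65690300, GRCm38.p6) differed by 0.27 (-0.16 to 0.70, adjusted p = 0.279) at A_55_P1993599 and by 0.21 (-0.24 to 0.66, adjusted p = 0.421) at A_52_P90289, and the groups overlapped at both.

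The array annotation, on mm9, placed 12 of the 21 member probes on the chromosome of their gene and 9 on another, among them all 3 Amd2 probes, the Sat1 probe and 2 of the 4 Odc1 probes. Copies of these transcripts elsewhere in the genome may carry the same letters, and which of them contributed signal was not tested. A shared chromosome does not put a probe in its gene. The 2 Odc1 probes on chromosome 12, A_55_P1995173 and A_52_P436238, were placed 99.7 Mb apart, and the 3 Sms probes on chromosome X at least 42.3 Mb from each other, so no more than 1 of each set lies at its gene by these positions. For Smox, Srm and Oaz2 every probe was placed on the chromosome of the gene.

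**Figure D3:**
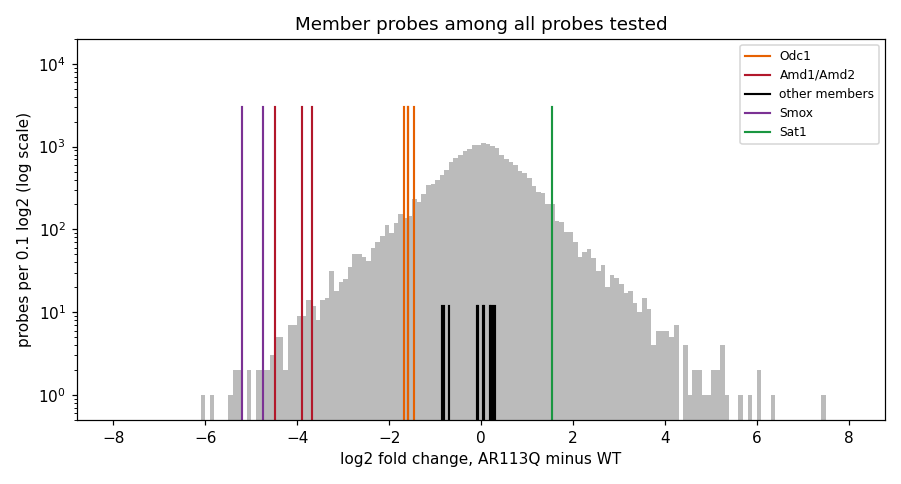
Histogram of the log2 fold change of AR113Q against WT (x axis) for all 20991 probes tested, with the number of probes per bin on a log scale (y axis). Vertical lines, whose height has no meaning, mark the member probes, and those of Smox and the Amd genes lie far in the lower tail, from -5.21 to -3.68.

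The start regions of the genes behind the probes called lower are given from RefSeq (GRCm38.p6). Amd1 is shown beside Amd2 because the shared probes do not tell them apart, and which of the pair was lower was not tested. Each was searched on both strands for 4 motifs, and capitals mark the matches. The E-box, the site of Myc and Max, was searched as CACGTG. The GC box, the site of Sp-family factors, was searched as GGGCGG. The TATA box was searched as TATAAA. One arm of the androgen response element was searched as TGTTCT. The windows are the 250 bases before the transcription start, cut where the annotated gene begins earlier (246 bases for Smox and 185 for Odc1).
Smox, chr2:131491612-131491857, plus strand: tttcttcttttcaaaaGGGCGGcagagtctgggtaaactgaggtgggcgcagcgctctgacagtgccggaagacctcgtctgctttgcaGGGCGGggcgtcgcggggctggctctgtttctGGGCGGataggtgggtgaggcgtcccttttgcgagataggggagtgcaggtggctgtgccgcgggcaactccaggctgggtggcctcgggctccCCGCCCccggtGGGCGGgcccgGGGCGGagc
Odc1, chr12:17544623-17544807, plus strand: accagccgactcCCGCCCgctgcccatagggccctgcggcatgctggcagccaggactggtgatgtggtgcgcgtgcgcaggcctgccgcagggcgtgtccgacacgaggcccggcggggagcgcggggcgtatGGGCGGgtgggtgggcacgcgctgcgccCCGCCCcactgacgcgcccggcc
Amd1, chr10:40302189-40302438, minus strand: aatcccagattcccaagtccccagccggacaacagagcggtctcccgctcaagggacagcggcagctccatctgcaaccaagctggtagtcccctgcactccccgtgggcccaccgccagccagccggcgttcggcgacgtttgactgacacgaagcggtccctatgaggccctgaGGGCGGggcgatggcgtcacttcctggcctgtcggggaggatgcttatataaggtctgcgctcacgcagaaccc
Amd2, chr10:35711892-35712141, minus strand: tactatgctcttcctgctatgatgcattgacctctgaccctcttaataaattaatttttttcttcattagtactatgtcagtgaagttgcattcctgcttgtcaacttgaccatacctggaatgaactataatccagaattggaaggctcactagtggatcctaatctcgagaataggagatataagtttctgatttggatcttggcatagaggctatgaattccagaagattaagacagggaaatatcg
In its 250 bases Smox held 6 GC boxes, Odc1 held 4, Amd1 held 1 and Amd2 held 0, and 1 of the Odc1 matches, 15 bases before the start, lies past the end of the stretch shown. Of 32851 start regions of this length, 32.7% held at least 1. None of these 4 windows held the exact string searched for the E-box, the TATA box or the androgen element arm. Of all start regions 6.02%, 12.4% and 16.1% held these strings, in that order. Variant spellings were not counted, such as the tatataa in the Amd1 window. The GC content was 68.0% for Smox, 80.0% for Odc1, 64.4% for Amd1 and 37.6% for Amd2. Sms, lower on adjusted p but not called, held 1 E-box 196 bases before the first of its 2 annotated starts and none before the other. In the window of Sat1, the member that rose, there were 2 GC boxes and 1 androgen element arm, 191 bases before the start. Oaz2, which was not called, also held 1 such arm, 238 bases before its start, and 3 GC boxes. Paox, not called either, held 1 and 3 GC boxes before its 2 annotated starts. Oaz1 held none of the 4 motifs, and no window was available for Srm. A match in letters is not a binding site, and the lack of one covers these windows alone.

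Genes next to the pathway were followed in 6 lists with 1 probe per gene, and 20 of 41 tested genes were called, or 48.8%, 8 higher and 12 lower in AR113Q. Over all genes tested 11.2% were higher and 13.1% lower. The count was 11 with normexp, 13 without background subtraction and 8 in the authors' table, settings in which 9.95%, 10.8% and 8.56% of all probes were called. It was 18 over probes well above background on all 7 arrays, where 21.9% of all probes were called. Myc, a transcription factor with Odc1 among its known targets, was 1.07 higher (SE 0.34, adjusted p = 0.0333), and its partner Max was 1.13 higher (SE 0.17, adjusted p = 0.00126). Mycn and Mxi1 were not tested because their probes were too dim.

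Of the antizyme inhibitors, which release ornithine decarboxylase from antizyme, Azin1 was read by 3 probes. The brightest, A_51_P234544, read 9.89, 9.69, 10.22 and 10.60 in WT and 9.40, 9.12 and 9.14 in AR113Q, a difference of -0.88 (adjusted p = 0.0168) that was under the fold threshold. A_52_P24631 was called, at -2.10 (adjusted p = 0.000194). The remaining Azin1 probe was well above background on 3 of 4 WT arrays and on 0 of 3 AR113Q arrays, so it passed the filter through WT alone and no fold is given. Azin2 differed by 0.60 at its brighter probe (adjusted p = 0.106) and by -0.38 at the other (adjusted p = 0.269), and neither was called. In this list 0 of 3 tested genes were called with 1 probe per gene, Sat2 among them, and Oaz3 and Satl1 were not tested.

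In polyamine transport 2 of 8 tested genes were higher and 3 lower. Slc7a1, a carrier of arginine and other cationic amino acids, was 2.40 higher (SE 0.21, adjusted p = 0.000171), and Atp13a3, a P5-type ATPase linked to polyamine uptake, was 1.49 higher (SE 0.18, adjusted p = 0.000605). Its lysosomal relative Atp13a2, which exports spermine to the cytosol, was lower by 1.02 (its log2 fold change was -1.02, SE 0.19, adjusted p = 0.00373). Slc47a1, an organic cation exporter, differed by -1.77 (SE 0.47, adjusted p = 0.017), and Slc18b1, a vesicular polyamine carrier, by -1.56 (SE 0.18, adjusted p = 0.000533). The hypusine pathway, which uses spermidine to modify eIF5A, had 0 of 4 tested genes called, with log2 fold changes from -0.12 for Eif5a to 0.36 for Dohh.

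Among genes of ornithine, arginine and creatine, 1 of 8 tested was higher and 3 were lower. Asl, which makes arginine, was 1.45 higher (SE 0.18, adjusted p = 0.000634). The first enzyme of creatine synthesis, Gatm, differed by -1.49 (SE 0.17, adjusted p = 0.000435), and Gamt, which methylates its product with S-adenosylmethionine, differed by -1.20 (SE 0.28, adjusted p = 0.0104). Aldh18a1, which leads from glutamate towards proline and ornithine, differed by -1.10 (SE 0.26, adjusted p = 0.011). Gatm and Aldh18a1 were dim, each well above background on 4 WT arrays and 2 AR113Q arrays. Both thus reached the filter of 3 arrays through WT, and their folds are uncertain.

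In the methionine cycle and salvage, which make the donor for polyamine synthesis and recover the methylthioadenosine it leaves, 3 of 15 tested genes were higher and 5 were lower. Mat2a, which makes S-adenosylmethionine in most tissues, differed by -1.80 (SE 0.24, adjusted p = 0.000795), and the salvage enzymes Adi1 and Mri1 differed by -1.45 (SE 0.16, adjusted p = 0.000381) and -1.22 (SE 0.20, adjusted p = 0.00228). Mtap and Enoph1 of the same salvage path also fell, both by 1.03 on the log2 scale. The 3 genes called higher with 1 probe per gene were Gnmt, which uses up S-adenosylmethionine (3.59, SE 0.42, adjusted p = 0.000503), and the transsulfuration enzymes Cbs (2.41, SE 0.33, adjusted p = 0.000947) and Cth (2.16, SE 0.35, adjusted p = 0.00203). Ahcyl2 was under the fold threshold at its brighter probe (0.54, limma adjusted p = 0.023) and called at its dimmer probe (1.09, limma adjusted p = 0.00311).

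**Figure D4:**
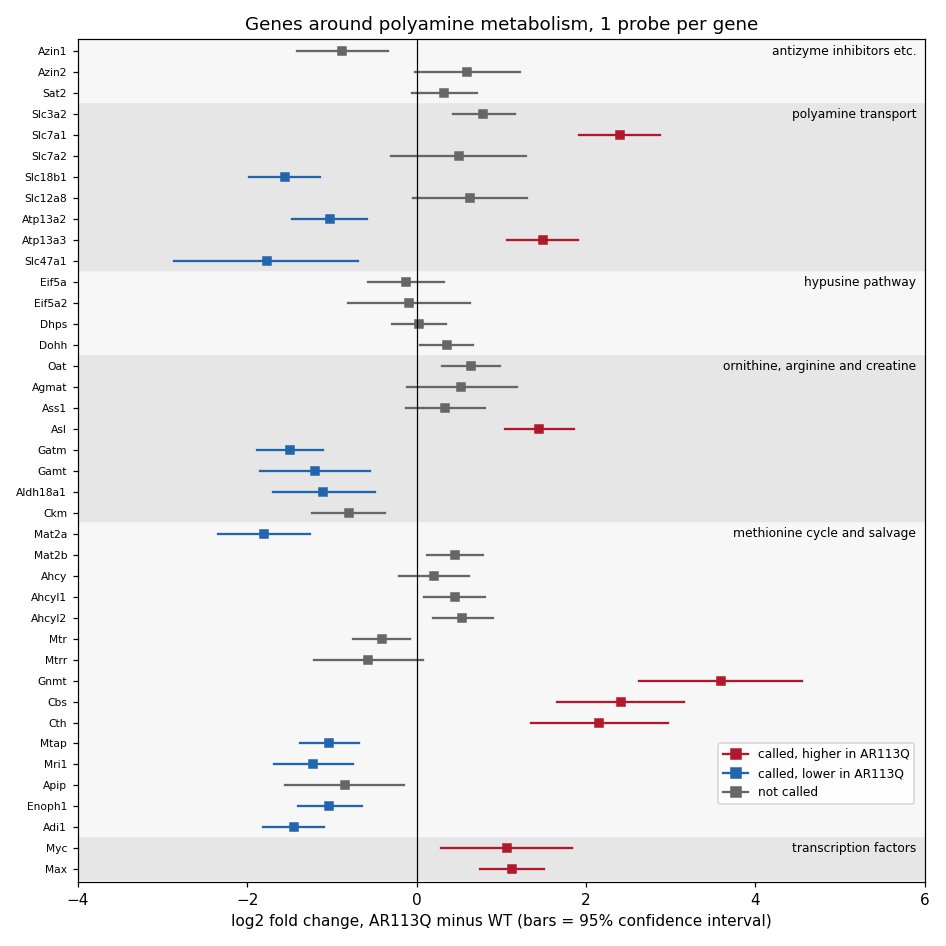
Log2 fold change of AR113Q against WT (x axis) with its 95% confidence interval for 40 of the 41 tested genes of the 6 lists, 1 probe per gene (rows, shaded by list). The 8 genes called higher (red) include Gnmt at 3.59, and the 11 plotted genes called lower (blue) include Mat2a and 4 salvage genes.

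The genes whose pattern over the 7 arrays was most like a member's were found by Pearson's r among 17048 other probes well above background on all arrays. For Smox (A_55_P1998892) these included Slc26a6, Lman1, Alg6 and Tubd1, at 0.997 to 0.999. For the Amd2 probe A_55_P2014506 they were Plpp7, Ctdnep1, Amz2, LOC102634333 and Snx21, at 0.996 to 0.999. For Odc1 (A_55_P1995173) they were Pkn3, Cyb5d2, Lrfn3, Hspa12b and the unnamed probe A_55_P1982817, at 0.993 to 0.997. The 7 points share their genotype groups, so these correlations are a description only. The log2 fold changes of these genes ran from -0.56 for Snx21 to -3.28 for LOC102634333.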

How the data were processed

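Quadriceps RNA of 4 WT and 3 AR113Q mice was measured on single-dye arrays. The authors labelled the RNA with Cy3, scanned the arrays and read the spots by Agilent Feature Extraction 10.7.3.1, per the labels. The deposited scanner files give an intensity per spot, with the local background already subtracted and no scaling across arrays. A second deposited table holds the authors' own log2 values of 18592 probes, quantile normalized according to the study's methods. Its columns had medians of 8.921 to 8.931 and correlated with the log2 signal of the same array at 0.946 to 0.976, so its scale and direction were clear, while the background step behind it was not given in the sources used here.

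Log2 signals were quantile normalized over non-control spots, outlier spots were left out, and spots of a probe were averaged. A probe was kept where at least 3 of the 7 arrays marked it well above background, which left 20991 probes. The genotypes were compared by limma 3.58.1 (R 4.3.3), and the fit was first tested on simulated data. The simulation had few changed probes and no slide effect, so it does not measure the error rate in these data. No member spot was marked as an outlier. Names came from RefSeq accessions of the GRCm38.p6 table, which matched 28330 probes, and otherwise from the array. Every probe of the 10 members was named, as were Myc, Azin1 and Azin2, up to 3 called genes in each direction for each list, and the 5 genes most like the brightest probe of Amd2, Odc1 and Smox. Mtap, Enoph1, Ahcyl2, Eif5a, Dohh and the unnamed probe next to Odc1 were picked after their values were seen. A listed gene and a gene with a pattern like Smox are counted but not reported here. The members, the lists of neighbouring genes and the marker lists (myofiber, satellite cell, adipocyte, fibroblast, endothelial cell, macrophage, erythrocyte, Schwann cell) were chosen with earlier results of these data known. Nothing in the labels ties 2 arrays to 1 mouse, and the number of arrays limits the precision. The alternatives were other scalings, background steps, filters, units of the test, variance models, slide and replicate terms, and leaving out each array.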

Additional observations from a re-analysis of the deposited data

How the results depend on the processing

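The results were recomputed under 16 other settings and with each of the 7 arrays left out in turn. Of 449 values of single probes, 414 kept their direction and their side of the threshold, or moved by less than the spread between mice. Settings that changed only the filter or the threshold could not move a fold change. Slide as a fixed effect and slide 2 alone gave the same fold changes as each other. Part of the 414 was thus fixed in advance. The count of called member probes, 10 as reported, was 9 to 11 with an array left out and 10 with the replicate block. It was 4 of 9 genes with 1 probe per gene and 4 with the mean over the probes of a gene, where the unit is the gene, and the median log2 fold change was then -0.0912 and -0.0778. It dropped to 0 once slide entered as a fixed effect, as did the count for the neighbouring genes and for all 20991 probes. In that limma fit 7928 of the 20991 probes had an unadjusted p under 0.05. So did 8 of the 21 member probes, a share like that of all probes. The genotype difference of that fit rests on the 2 arrays of slide 2. Its 1 residual degree of freedom comes from WT replicates 3 and 4, which shared slide 4. The adjusted p of both Smox and all 3 Amd2 probes was then 0.0508. With slide as a random block the count was 10. The neighbouring genes called, 20 as reported, were 11 with normexp, 13 without background subtraction and 8 in the authors' table, where calls over all probes fell from 24.8% to 9.95%, 10.8% and 8.56%, and 15 to 20 with an array left out.

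Signs that changed were all of probes that were not called. Oaz1 A_55_P2171047 was -0.149 with 75th percentile scaling, -0.34 with slide as a fixed effect, and between -0.0798 and 0.218 with an array left out, with -0.0019 without WT replicate 1. Srm A_55_P2002376 was -0.00969 with array weights and -0.0117 without AR113Q replicate 1. Paox A_55_P2019751 was 0.00616 with array weights. The call of the dim Odc1 probe A_55_P2035102 was lost without WT replicate 1 (adjusted p = 0.0604), without WT replicate 2 (0.057) and without AR113Q replicate 3 (0.0504), and Sms A_55_P2115995 was called without AR113Q replicate 2, at -1.11. Without AR113Q replicate 3 this Sms probe stood at -0.551 (limma adjusted p = 0.117). Its adjusted p was also above 0.05 without WT replicate 1, 2 or 4 and without AR113Q replicate 1. Same-numbered arrays did not deviate together, with correlations of 0.04, -0.02 and 0.16 between their deviations from the genotype means, so the paired fit was kept as an alternative. It changed no call of a member probe. Signal over background limits the dim Odc1 probe, which was well above background on 1 of 3 AR113Q arrays.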
